A study of Mus musculus with 9 samples.

Results

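The genes described here are 10 markers of smooth muscle cells, pericytes and myofibroblasts: Acta2, Actg2, Tagln, Cnn1, Lmod1, Myh11, Myl9, Des, Pdgfrb and Cspg4. They were taken by gene symbol from an expression table of 18875 genes, and all 10 were found in it. The libraries, 9 in number, hold mRNA of whole lung from wild-type (WT) mice of BALB/c, a common inbred strain, and each of 3 groups has 3 of them. The long-term group was given PM2.5, fine airborne particulate matter, into the nose at 10 mg/kg, 6 times with an interval of 3 days, and the short-term group received that dose 1 time. The PBS group (phosphate-buffered saline) is labelled as a long-term exposure, so no PBS samples on the short-term schedule were analysed here, and the age of the mice and the time from the last dose to collection are not given in the sources used here. Whether the 3 samples within a group are different mice is not stated, so p-values here reflect the spread between samples, which may be technical.

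Smooth muscle cells wrap the airways and the larger pulmonary vessels and contract when myosin thick filaments slide along actin thin filaments. Pericytes are mural cells that sit on the capillary wall, and their recruitment depends on platelet-derived growth factor from the endothelium acting on its receptor beta. Myofibroblasts are matrix-producing cells that take up smooth muscle actin into contractile bundles, and Acta2 is the marker by which they are usually recognised in pulmonary fibrosis, which the study's title names. Many smooth muscle genes are switched on by serum response factor (SRF) and its partner myocardin through a promoter element called the CArG box.

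Levels were deposited in TPM, which is a share of all transcripts corrected for their length, so that the levels of different genes can be set side by side. All 10 genes reached 1 TPM in every library. In bulk tissue, fewer cells of a type and less RNA per cell cannot be told apart, and TPM alone does not give the number of reads behind a value. The short-term libraries fell with transcript length. Relative to the PBS mean, genes with long transcripts (the top of 5 equal classes) dropped by 1.43, 0.65 and 0.87 on the log2 scale against genes with short transcripts (the bottom class) in short-term replicates 1, 2 and 3. In the long-term libraries this difference was -0.20 to -0.13. The results against PBS are therefore given as deposited and, for the 10 genes in short-term lungs and for the gene lists, also after correcting each library for the length and GC content of transcripts. The median log2 difference of all tested genes was -0.34 for short-term PM2.5 against PBS as deposited and -0.02 after that correction, against 0.03 and -0.07 for long-term PM2.5.

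The smooth muscle actins Acta2 and Actg2 are close relatives in sequence, and their values below rest on reads telling them apart. Acta2 lies at chr19:34240336-34255585 (minus strand) and Actg2 at chr6:83512909-83536251 (minus strand) in the RefSeq annotation of GRCm38.p6. Their coding sequences, of 1134 and 1131 bases in GENCODE vM21 transcripts (GRCm38.p6), were 84.2% identical, with a longest shared run of 29 bases. The starts of the coding sequences are shown 5′ to 3′, with capitals for bases that differ or have no partner in the alignment.
Acta2: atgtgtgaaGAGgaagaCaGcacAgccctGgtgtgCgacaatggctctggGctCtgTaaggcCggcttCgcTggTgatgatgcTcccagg
Actg2: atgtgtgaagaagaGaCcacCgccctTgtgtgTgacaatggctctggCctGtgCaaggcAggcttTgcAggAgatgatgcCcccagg
No stretch of 50 bases of the Actg2 transcript occurred in a transcript of another gene. Of the Acta2 transcript, 0.352% of such stretches did, shared with Actg1, Actg-ps1 and Gm12715, and of the Myh11 transcript 0.400%, shared with the non-muscle myosins Myh9 and Myh10. For the other 7 genes there was none, and at 100 bases none of the 10 genes shared a stretch.

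The RefSeq promoter table (GRCm38.p6), which covers 250 bases before to 50 bases after a start site, held an entry for 6 of the 10 genes: Acta2, Cnn1, Des, Myl9, Lmod1 and Cspg4. Tagln, Myh11, Actg2 and Pdgfrb had none. The CArG box reads the same on either strand, so a search of the gene's strand covered both. A full match was present in 1 of the 6 promoters (Myl9), against 1.63% of all 32851 promoters of the table, and a match with at most 1 mismatch was present in 4 of the 6 (Acta2, Myl9, Lmod1 and Cspg4), against 21.1%. The matches are shown in capitals within 30 bases of the gene's strand, 5′ to 3′, because this element is the one through which SRF is known to act on smooth muscle genes.
Acta2 (chr19:34255438-34255467, minus strand, 84 bases before the start): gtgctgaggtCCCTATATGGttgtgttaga
Acta2 (chr19:34255388-34255417, minus strand, 34 bases before the start): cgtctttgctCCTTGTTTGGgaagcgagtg
Myl9 (chr2:156775293-156775322, plus strand, 161 bases before the start, the full match): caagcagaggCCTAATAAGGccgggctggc
Myl9 (chr2:156775355-156775384, plus strand, 99 bases before the start): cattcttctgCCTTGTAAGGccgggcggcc
Lmod1 (chr1:135324614-135324643, plus strand, 189 bases before the start): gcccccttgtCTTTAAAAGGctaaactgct
Lmod1 (chr1:135324639-135324668, plus strand, 164 bases before the start): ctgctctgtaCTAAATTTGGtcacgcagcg
Cspg4 (chr9:56864856-56864885, plus strand, 2 overlapping matches from 238 bases before the start): tgtcccaaacCCTTAAAATGGggcatgggt
A match describes letters in this window and is not a measured binding site. Both windows of Acta2 lie within the first exon of a longer Acta2 transcript in GENCODE vM21.

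In PBS lungs the 10 levels ran from 10.9 TPM for Cspg4 to 196 TPM for Myl9. Myl9, Tagln, Des and Acta2 were the most abundant, at group means of 196, 162, 160 and 126 TPM. Neighbours in this order overlapped between libraries. Pdgfrb, Myh11 and Cnn1 followed at 78.0, 74.7 and 63.1 TPM and also overlapped with their neighbours among these 3. Actg2 was apart from both neighbours at 24.0 TPM, and Lmod1 and Cspg4, at 13.2 and 10.9 TPM, overlapped. In short-term lungs Tagln came first at 239 TPM, with Myl9 at 234 TPM overlapping it, and Myh11 had moved down to overlap with Actg2, at 42.6 against 39.8 TPM. In long-term lungs Des lay at 111 TPM, below Acta2 at 121 TPM, though their libraries overlapped.

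**Figure D1:**
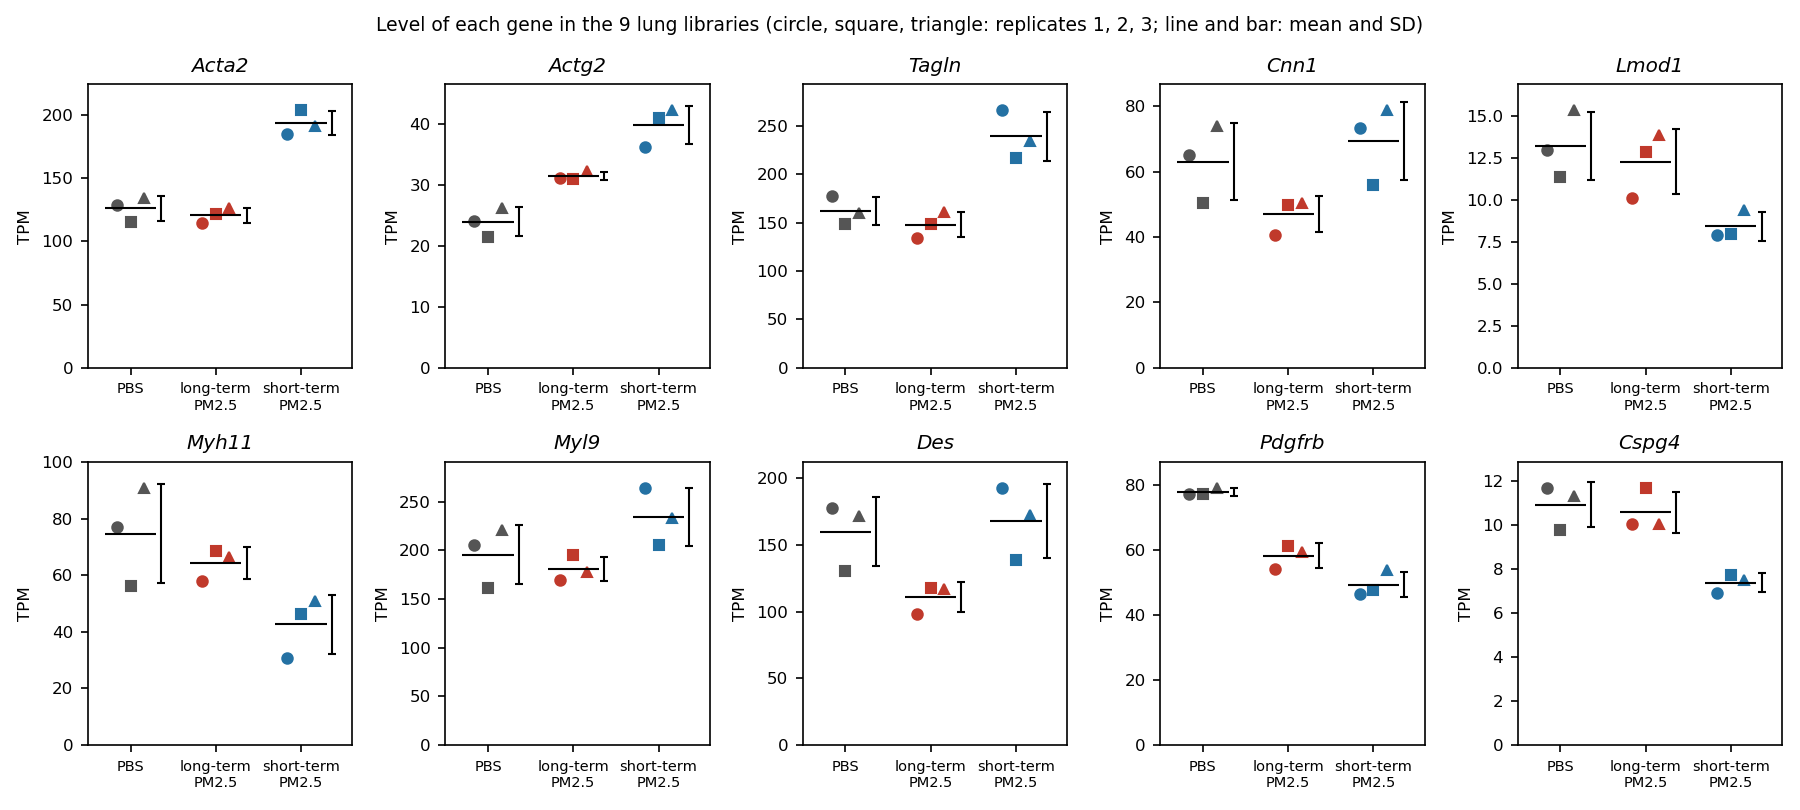
TPM of each of the 10 genes in the 9 lung libraries, by group; each point is a library, and the line and bar are the group mean and SD (n = 3). As deposited, Acta2, Actg2 and Tagln were highest and Myh11, Lmod1, Pdgfrb and Cspg4 lowest in the 3 short-term libraries. Des was lowest in the 3 long-term libraries. After correction for transcript length and GC content, Cspg4 was higher in short-term lungs than in PBS lungs. The differences of Myh11, Lmod1 and Pdgfrb between these groups did not pass after the correction.

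Against PBS, short-term lungs as deposited had more Acta2, Actg2 and Tagln and less Myh11, Pdgfrb, Lmod1 and Cspg4, while Myl9, Cnn1 and Des did not pass the test. With limma on log2(TPM + 1) and a Benjamini-Hochberg adjusted p under 0.05, 3 of the 10 genes rose and 4 fell, where 51.9% of all 13991 tested genes were called, 11.7% higher and 40.3% lower. The median difference of the 10 genes was 0.10 on the log2 scale, against -0.34 for all tested genes. After correction for length and GC content 4 genes were higher (Acta2, Actg2, Tagln and Cspg4) and none was lower, against 23.8% and 26.0% of the tested genes; 3 of the 4 falls were lost and the fourth, that of Cspg4, turned. With median-ratio scaling 4 were higher and 1 lower, against 24.5% and 27.8% of the tested genes, and with quantile normalization 3 and 2, against 24.9% and 26.8%.

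Acta2 encodes the smooth muscle alpha-actin of the thin filament. Its level was 128, 115 and 134 TPM in PBS replicates 1 to 3 and 185, 204 and 191 TPM in short-term replicates 1 to 3. Every short-term library lay above every PBS library. The difference was 0.61 ± 0.10 (log2 scale, SE, n = 3 libraries a group), or 53.3% between the group means, with a limma adjusted p of 0.00131, and 0.76 after the correction. Actg2, the smooth muscle gamma-actin, which is best known from the gut wall, stood at 24.1, 21.5 and 26.3 TPM in PBS and 36.3, 41.0 and 42.3 TPM in short-term lungs, again without overlap. It rose by 0.71 ± 0.12 (log2, limma adjusted p = 0.00146), and by 0.52 after the correction. Tagln encodes transgelin, an actin-binding protein that is among the earliest markers of smooth muscle differentiation. It was at 178, 148 and 161 TPM in PBS and 266, 217 and 235 TPM in short-term lungs, and rose by 0.56 ± 0.12 (log2, limma adjusted p = 0.00435), and by 0.47 after the correction. These 3 genes were called higher in short-term lungs in 18 of 18 alternative analyses. Groups that do not overlap were common in this comparison, at 60.3% of all tested genes.

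Cnn1 encodes calponin, which binds actin and slows the myosin ATPase. It was at 65.1, 50.4 and 74.0 TPM in PBS and 73.4, 56.0 and 78.8 TPM in short-term lungs, and the groups overlapped. Its difference was 0.14 ± 0.18 (log2, 95% interval -0.25 to 0.53, limma adjusted p = 0.525), and 0.33 after the correction (limma adjusted p = 0.206). Lmod1, leiomodin, which starts new actin filaments in smooth muscle, was at 13.0, 11.3 and 15.3 TPM in PBS and 7.89, 7.97 and 9.39 TPM in short-term lungs. The groups were apart, and it fell by 0.59 ± 0.17 (log2, limma adjusted p = 0.0155), but the difference was -0.17 and did not pass after the correction (limma adjusted p = 0.374), nor with median-ratio scaling or quantile normalization (-0.27 and -0.14).

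Of the thick filament, Myh11 encodes the smooth muscle myosin heavy chain, the most restricted marker of mature smooth muscle. It was at 77.0, 56.1 and 91.0 TPM in PBS and 30.8, 46.2 and 50.8 TPM in short-term lungs. All short-term libraries lay below all PBS libraries, with the lowest value in short-term replicate 1, the library with the steepest fall with length. Myh11 fell by 0.80 ± 0.21 (log2, limma adjusted p = 0.0108) and by 0.59 without that library, whereas the corrected difference was -0.09 (limma adjusted p = 0.640). With median-ratio scaling the fall passed at -0.45 (limma adjusted p = 0.0448), and with quantile normalization at -0.59 (limma adjusted p = 0.0146). The call was made in 17 of 18 alternative analyses. Myl9 encodes a regulatory light chain whose phosphorylation by myosin light chain kinase starts contraction. It was at 205, 161 and 220 TPM in PBS and 264, 205 and 234 TPM in short-term lungs, with overlap, a difference of 0.26 ± 0.14 (log2, 95% interval -0.05 to 0.58, limma adjusted p = 0.136) and -0.03 after the correction. With median-ratio scaling alone it passed, at 0.61 (limma adjusted p = 0.0293).

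Des encodes desmin, the intermediate filament protein of muscle, which lung pericytes and cardiac muscle cells also carry. It was at 177, 130 and 172 TPM in PBS and 193, 138 and 173 TPM in short-term lungs. The groups overlapped over most of their range, with a difference of 0.07 ± 0.16 (log2, 95% interval -0.28 to 0.43, limma adjusted p = 0.720), and 0.33 after the correction (limma adjusted p = 0.101).

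Pdgfrb and Cspg4 encode surface proteins of mural cells, the receptor beta for platelet-derived growth factor and the proteoglycan NG2. Pdgfrb was at 77.5, 77.2 and 79.3 TPM in PBS and 46.6, 47.7 and 53.8 TPM in short-term lungs. It fell by 0.65 ± 0.11 (log2, limma adjusted p = 0.00122), a drop of the group mean from 78.0 to 49.4 TPM, but by 0.05 after the correction (limma adjusted p = 0.711), and by 0.31 with median-ratio scaling (limma adjusted p = 0.0807). With quantile normalization the fall of Pdgfrb passed at -0.48 (limma adjusted p = 0.00434), and it was called in 16 of 18 alternative analyses. Cspg4 was at 11.7, 9.77 and 11.3 TPM in PBS and 6.93, 7.74 and 7.49 TPM in short-term lungs. As deposited it fell by 0.51 ± 0.14 (log2, limma adjusted p = 0.0138), while after the correction it was higher by 0.27 (limma adjusted p = 0.0181), and with quantile normalization it differed by -0.05 (limma adjusted p = 0.798). Its call was also lost without PBS replicate 1 or 3, at limma adjusted p of 0.0627 and 0.0525.

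In short-term lungs the genes that fell and those that rose were split by transcript length. The 4 genes that fell were the 4 longest, Lmod1 (3948 bases), Pdgfrb (5407), Myh11 (6549) and Cspg4 (8121), and the 3 that rose were among the 4 shortest, Actg2 (1333), Tagln (1595) and Acta2 (2035). The size of the difference did not follow length throughout, since Cspg4, the longest, fell least of the 4, and Myl9 (1128), the shortest of all, did not pass. The part of RNA quality or library preparation in these values was not tested.

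**Figure D2:**
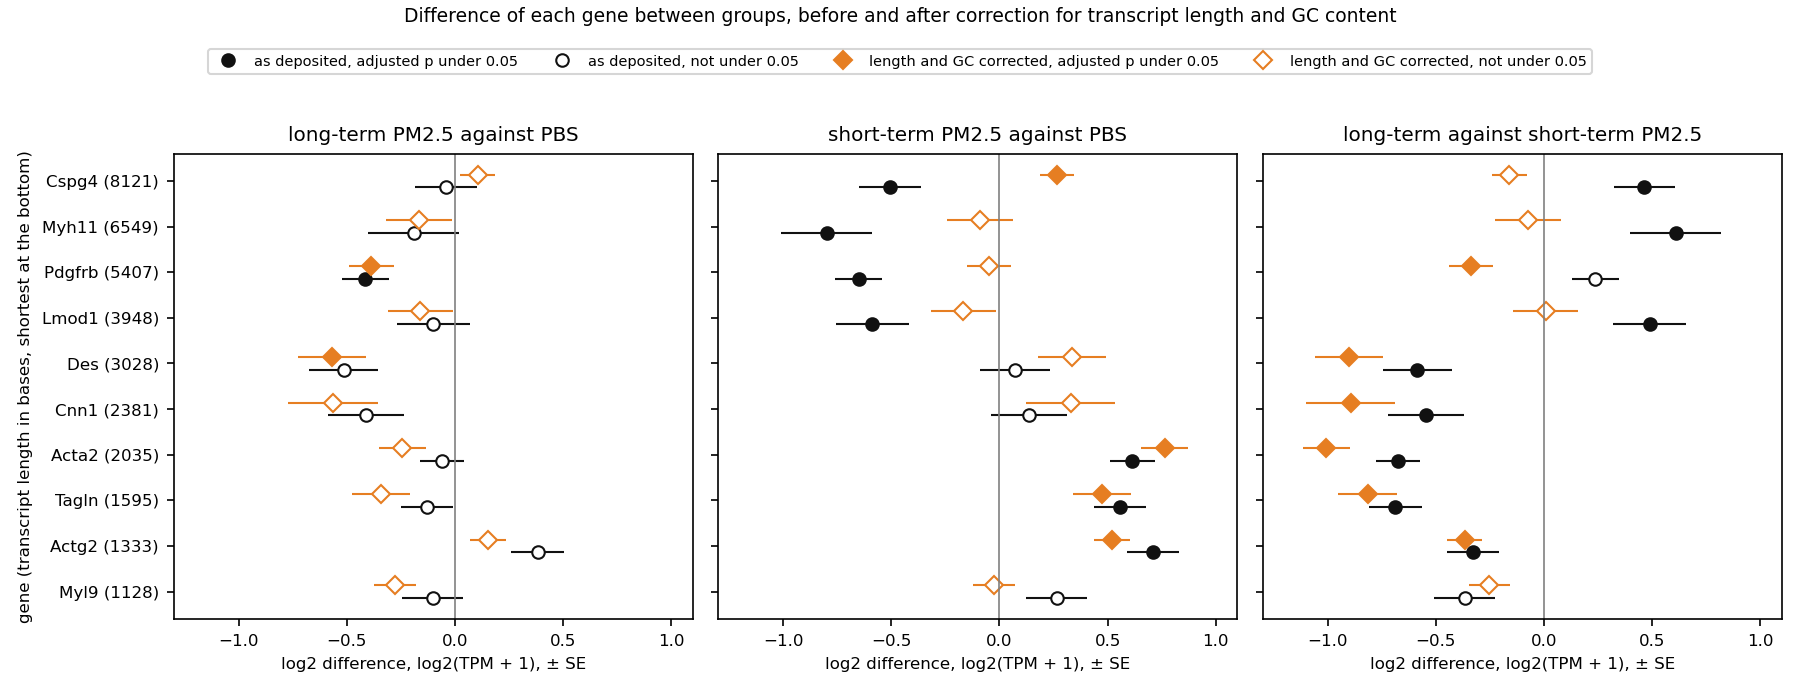
Log2 difference of each gene (± SE) in 3 comparisons, with genes ordered by transcript length; black circles are values as deposited, orange diamonds values corrected for length and GC content, and filled symbols have a limma adjusted p under 0.05. In short-term lungs Acta2, Actg2 and Tagln were higher on both scales. The falls of the 4 longest genes passed as deposited and not after the correction, where that of Cspg4 turned to 0.27.

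Against PBS, long-term lungs had less Pdgfrb, and no other gene of the 10 passed the test. It was the 1 gene called of 10, where 11.2% of all tested genes were called, 9.51% higher and 1.72% lower. At an unadjusted p under 0.05 there were 4 genes, Pdgfrb, Des, Actg2 and Cnn1. The median difference of the 10 genes was -0.12 on the log2 scale, against 0.03 for all tested genes. The long-term and short-term comparisons share the PBS libraries.

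Pdgfrb was at 54.2, 61.4 and 59.4 TPM in long-term replicates 1 to 3, below all PBS libraries, whose values lay within 77.2 to 79.3 TPM. It fell by 0.41 ± 0.11 (log2, limma adjusted p = 0.0314), or from 78.0 ± 1.16 to 58.3 ± 3.74 TPM (SD, n = 3). After the correction the fall was 0.39 and passed. The direction held in all 18 alternative analyses, from -0.45 to -0.36, but the call was made in 9 of them, and it was lost when any 1 of the 6 compared libraries was left out, at limma adjusted p of 0.0777 to 0.158. Cspg4, the other mural surface gene, was at 10.1, 11.7 and 10.0 TPM in long-term lungs, among the PBS values, with a difference of -0.04 ± 0.14 (log2, 95% interval -0.35 to 0.27); the sign turned after the correction, at 0.11, which did not pass.

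Des was at 97.9, 118 and 117 TPM in long-term lungs, below the lowest PBS library at 130 TPM. Its difference was -0.51 ± 0.16 (log2, 95% interval -0.87 to -0.16), which did not pass as deposited (limma adjusted p = 0.0690) and passed after the correction (-0.57, limma adjusted p = 0.0233). With the correction Des and Pdgfrb were thus lower, where 12.9% of the tested genes were lower and 13.1% higher. With median-ratio scaling none of the 10 genes was called, where 10.5% of the tested genes were higher and 3.66% lower, and with quantile normalization Des and Pdgfrb were lower and Actg2 higher, where 8.27% were lower and 10.2% higher. Actg2 was at 31.2, 31.0 and 32.3 TPM, above all PBS libraries, whose highest was 26.3 TPM. Its difference was 0.38 ± 0.12 (log2, 95% interval 0.11 to 0.65, limma adjusted p = 0.0758), and 0.15 after the correction. Not overlapping is common here, since 43.2% of all tested genes had groups apart in this comparison.

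Acta2, the usual myofibroblast marker, was at 114, 122 and 126 TPM in long-term lungs, and these values lay within or just below the PBS range. Its difference was -0.06 ± 0.10 (log2, 95% interval -0.29 to 0.17, limma adjusted p = 0.849), and -0.24 after the correction, which did not pass either. Tagln was at 134, 149 and 161 TPM, with a difference of -0.13 ± 0.12 (95% interval -0.40 to 0.14). Cnn1 was at 40.6, 49.9 and 50.4 TPM, where the highest long-term value equalled the lowest PBS value at the deposited precision, and its difference was -0.41 ± 0.18 (log2, limma adjusted p = 0.198). Myh11, Myl9 and Lmod1 overlapped with PBS, with differences of -0.19, -0.10 and -0.10 and 95% intervals of -0.66 to 0.28, -0.42 to 0.21 and -0.47 to 0.27; that of Lmod1 turned sign without PBS replicate 3 or long-term replicate 1.

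Between the exposures, long-term lungs had less Acta2, Tagln, Des, Cnn1 and Actg2 than short-term lungs and, as deposited, more Myh11, Lmod1 and Cspg4, of which none was higher after the correction, where Myh11 and Cspg4 turned to -0.07 and -0.16. As deposited, 8 of the 10 genes were called, 5 lower and 3 higher, where 50.5% of all tested genes were called, 7.08% lower and 43.4% higher. The 10 genes had a median difference of -0.35 on the log2 scale, against 0.41 for all tested genes. After the correction 6 genes were lower and none was higher, against 22.2% and 19.2% of the tested genes; with median-ratio scaling the counts were also 6 and 0, against 19.7% and 26.9%, and with quantile normalization 5 and 0, against 21.4% and 21.3%.

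Acta2 was lower in long-term than in short-term lungs by 0.67 ± 0.10 (log2, limma adjusted p = 0.00100), with means of 121 ± 6.06 against 193 ± 9.46 TPM (SD, n = 3). Tagln was lower by 0.69 ± 0.12 (limma adjusted p = 0.00205), with means of 148 ± 13.3 against 239 ± 25.1 TPM. Both were called in 18 of 18 alternative analyses. Des was lower by 0.59 ± 0.16 (limma adjusted p = 0.0134) and lost its call only without long-term replicate 1 (limma adjusted p = 0.0576). Cnn1 was lower by 0.55 ± 0.18 (limma adjusted p = 0.0263) and lost its call without long-term replicate 1 or 2 or short-term replicate 3. Actg2 was lower by 0.33 ± 0.12 (limma adjusted p = 0.0446), and this call was made in 8 of 18 alternatives. Myl9 did not pass at -0.37 ± 0.14 (log2, limma adjusted p = 0.0509), although its long-term libraries, at 170 to 195 TPM, lay below its short-term libraries, at 205 to 264 TPM, as was the case for groups of 60.1% of all tested genes in one direction or the other. Pdgfrb differed by 0.24 ± 0.11 as deposited (log2, limma adjusted p = 0.0857) and by -0.34 after the correction, where it passed as lower (limma adjusted p = 0.0235).

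Without short-term replicate 1, which had the steepest fall with length, the same numbers rose and fell against PBS (3 and 4), and 5 genes were lower and 2 higher between exposures. Leaving out 1 library changed the count of 8 to 3 without long-term replicate 1 and also without long-term replicate 2, and to 5 without PBS replicate 1, long-term replicate 3 or short-term replicate 3. The calls over all 13991 tested genes dropped as well, from 7061 to 4621 and 5035 without long-term replicates 1 and 2. They were 6180, 5126 and 5811 without PBS replicate 1, long-term replicate 3 and short-term replicate 3. In long-term lungs against PBS the count of 1 went to 0 without PBS replicate 1 or 3 or any of the 3 long-term libraries, to 2 without short-term replicate 2 and to 3 without short-term replicate 1; the short-term libraries enter that comparison through the shared estimate of the spread. The spread within groups was shared by several genes. PBS replicate 2 was the lowest PBS library for 10 of 10 genes, and long-term replicate 1 was the lowest of its group for 8. Short-term replicate 2 was lowest of its group for Tagln, Cnn1, Des and Myl9, and short-term replicate 1 for the other 6. Over the deviations from group means in the 9 libraries, the 45 pairs of the 10 genes had a median Pearson r of 0.48 (range -0.05 to 0.95), which is a description of points that share libraries.

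A ratio of 2 genes within a library does not depend on the scaling of that library, though a length trend still enters it where the transcripts differ in length. The ratio of Actg2 to Acta2 was 0.188, 0.186 and 0.196 in PBS, 0.273, 0.254 and 0.256 in long-term and 0.196, 0.201 and 0.221 in short-term lungs. All long-term ratios lay above all ratios of both other groups, with means of 0.261 ± 0.0106 against 0.190 ± 0.0049 in PBS (SD, n = 3; two-sided exact permutation p = 0.1, the smallest that 3 against 3 libraries allow; 24 tests over 8 ratios were run, and the Benjamini-Hochberg adjusted value was 0.15). After the length and GC correction the long-term difference from PBS was 0.15 for Actg2 and -0.24 for Acta2, against 0.38 and -0.06 as deposited. The ratio of Myh11 to Acta2 was 0.587 ± 0.0964 in PBS, 0.532 ± 0.0280 in long-term and 0.220 ± 0.0502 in short-term lungs, with short-term libraries below all others. That of Pdgfrb to Acta2 was 0.620 ± 0.0417, 0.483 ± 0.0177 and 0.256 ± 0.0240 in the same order, and no groups overlapped. Both have a long transcript over a shorter one, and the length trend ran in the direction of the short-term values. Tagln to Acta2, of similar length, was 1.29 ± 0.0934, 1.23 ± 0.0494 and 1.24 ± 0.187, with overlap in all comparisons. Des to Acta2 was 1.26 ± 0.127 in PBS, 0.917 ± 0.0543 in long-term and 0.875 ± 0.183 in short-term lungs, and PBS libraries lay above all others.

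**Figure D3:**
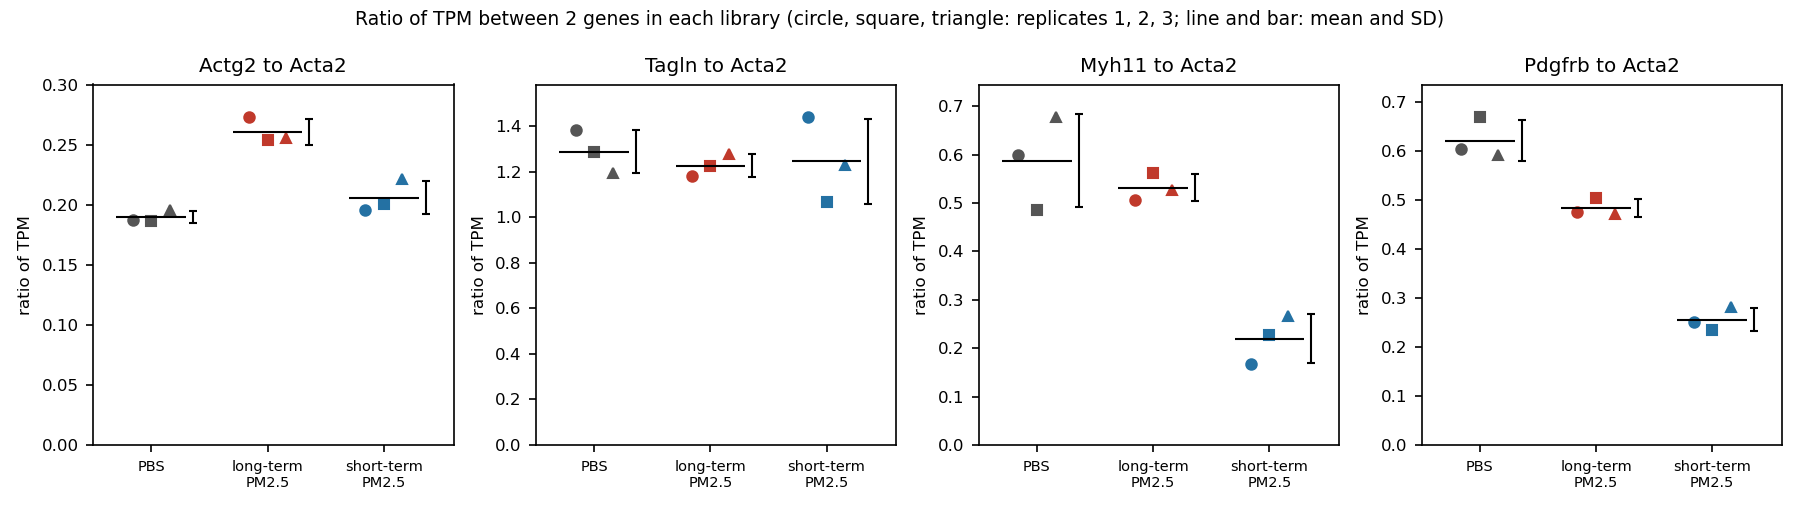
Ratio of TPM between 2 genes in each library, by group, with the group mean and SD (n = 3). The ratio of Actg2 to Acta2 was highest in the 3 long-term libraries (0.254 to 0.273), that of Tagln to Acta2 overlapped between groups, and those of Myh11 and Pdgfrb to Acta2 were lowest in the 3 short-term libraries, whose values fell with transcript length.

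Other genes of these cells were taken from lists, and their counts are read against the shares of all tested genes. These were 1.72% lower and 9.51% higher in long-term lungs and 40.3% lower and 11.7% higher in short-term lungs as deposited. After the correction they were 12.9% lower and 13.1% higher in long-term lungs and 26.0% lower and 23.8% higher in short-term lungs.

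Of 30 other contractile and cytoskeletal genes of smooth muscle, 2 fell and 0 rose in long-term lungs against PBS, and 19 fell and 2 rose in short-term lungs, with medians of -0.21 and -0.71 on the log2 scale; of all tested genes 1.72% and 40.3% fell. After the correction the counts were 14 lower and 0 higher in long-term and 18 lower and 3 higher in short-term lungs, where 12.9% and 26.0% of all tested genes were lower. The number of lower genes in short-term lungs was thus 19 and 18 on the 2 scales for this list, and 4 and 0 for the 10 genes. Smtn, smoothelin, a marker of contractile smooth muscle, went from 91.4 TPM in PBS to 67.5 in long-term lungs (-0.43 ± 0.12, limma adjusted p = 0.0461) and 58.8 in short-term lungs (-0.62 ± 0.12, limma adjusted p = 0.00263). Synm, synemin, an intermediate filament protein that pairs with desmin, went from 33.6 TPM to 19.0 (-0.79 ± 0.20, limma adjusted p = 0.0257) and 9.84 (-1.72 ± 0.20, limma adjusted p = 0.000242). Both were lower in both exposures after the correction as well. Myl6, the essential light chain that binds the myosin heavy chain, rose in short-term lungs by 0.55 ± 0.12 (limma adjusted p = 0.00427), from 1609 to 2354 TPM, but by 0.10 after the correction, which did not pass. Mylk, the kinase of the Myl9 protein, fell by 1.21 ± 0.24 in short-term lungs (limma adjusted p = 0.00282) and by 0.45 after the correction.

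Among 24 tested transcriptional regulators of smooth muscle and mesenchyme, 2 fell in long-term lungs, Tcf21 and Tbx2, and 23 fell in short-term lungs. After the correction 10 were lower in long-term lungs, and 16 were lower and 1 higher in short-term lungs. Srf went from 55.8 TPM in PBS to 38.9 in short-term lungs (-0.50 ± 0.13, limma adjusted p = 0.0117; -0.24 after the correction) and stood at 49.1 in long-term lungs (-0.17 ± 0.13, limma adjusted p = 0.567). Myocd, the gene of myocardin, was below 1 TPM in all 9 libraries, from 0.29 to 0.74 TPM, and was not tested. Among 25 tested receptors and channels of smooth muscle, 1 rose and 0 fell in long-term lungs and 0 rose and 20 fell in short-term lungs. After the correction 1 was higher and 9 lower in long-term lungs, where 12.9% of all tested genes were lower, and 3 were higher and 17 lower in short-term lungs, where 26.0% were lower. As deposited, the 1 that rose was Ptgir, the prostacyclin receptor, from 3.82 to 9.45 TPM (1.12 ± 0.18, limma adjusted p = 0.00288). Itga8, an integrin subunit of lung mesenchyme, went from 83.7 TPM in PBS to 15.4 in short-term lungs (-2.51 ± 0.33, limma adjusted p = 0.000425; -1.72 after the correction).

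Of 21 tested mural cell genes other than Pdgfrb and Cspg4, 3 fell and 1 rose in long-term lungs, and 16 fell and 1 rose in short-term lungs, where 1.72% and 40.3% of all tested genes fell. After the correction 12 and 15 were lower, where 12.9% and 26.0% of all tested genes were, and 1 was higher in each. The 3 that fell with long-term exposure were Art3, Vtn and Ndufa4l2. Ndufa4l2, a mitochondrial protein that is abundant in pericytes, went from 109 TPM in PBS to 68.7 (-0.66 ± 0.13, limma adjusted p = 0.00978) and 82.5 in short-term lungs (-0.40 ± 0.13, limma adjusted p = 0.0299; -0.75 after the correction). Vtn, vitronectin, went from 24.4 TPM to 14.7 (-0.68 ± 0.16, limma adjusted p = 0.0175) and 14.1 (-0.74 ± 0.16, limma adjusted p = 0.00375; -0.80 after the correction). Notch3, a receptor that maintains vascular smooth muscle and pericytes, went from 43.5 TPM to 15.3 in short-term lungs (-1.47 ± 0.19, limma adjusted p = 0.000401; -0.70 after the correction) and differed by -0.47 ± 0.19 in long-term lungs (limma adjusted p = 0.166). Not all mural genes behaved alike in short-term lungs. Rgs5 and Abcc9 fell as deposited (-0.61 and -0.86), but differed by -0.01 and 0.03 after the correction and did not pass. Higd1b and Cox4i2 did not pass as deposited (0.13 and -0.02) and were lower after the correction (-0.28 and -0.46). Steap4, a metalloreductase, was the 1 that rose, from 12.5 TPM to 39.8 in long-term lungs (1.60 ± 0.28, limma adjusted p = 0.00414) and 53.3 in short-term lungs (1.96 ± 0.28, limma adjusted p = 0.000626; 2.40 after the correction).

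Pdgfb, the ligand of the receptor beta, stood at 144 TPM in PBS, 117 in long-term lungs (-0.30 ± 0.11, limma adjusted p = 0.137) and 105 in short-term lungs (-0.46 ± 0.11, limma adjusted p = 0.00764). After the correction the Pdgfb difference was -0.29 in long-term lungs, which passed (limma adjusted p = 0.0175). In short-term lungs it was -0.20, which did not pass (limma adjusted p = 0.0532). Tgfb1, the main inducer of myofibroblasts, was at 200 TPM in PBS, 203 in long-term and 224 in short-term lungs, and did not pass in either as deposited (limma adjusted p = 0.961 and 0.404). After the correction Tgfb1 was higher in short-term lungs by 0.27 (limma adjusted p = 0.0390) and differed by 0.03 in long-term lungs (limma adjusted p = 0.857). Inhba, a subunit of activin, was the 1 gene called among 21 tested TGF-beta signals in long-term lungs as deposited, from 0.353 to 2.69 TPM (1.42 ± 0.23, limma adjusted p = 0.00241). After the correction 4 of these signals were higher and 1 lower in long-term lungs. In short-term lungs 2 rose and 14 fell as deposited, and 6 were higher and 4 lower after the correction. Of 30 tested genes of the myofibroblast matrix, 4 rose and 0 fell in long-term lungs, and 11 were higher and 5 lower after the correction, where 13.1% and 12.9% of all tested genes were. In short-term lungs 4 rose and 13 fell, a count near the 40.3% of all tested genes that fell, and 9 were higher and 9 lower after the correction. Col1a1, the alpha 1 chain of type I collagen, went from 130 TPM in PBS to 209 in long-term lungs (0.68 ± 0.12, limma adjusted p = 0.00433), beside the Acta2 difference of -0.06. In short-term lungs Col1a1 was at 151 TPM (0.22 ± 0.12, limma adjusted p = 0.143; 0.88 and passing after the correction), beside the Acta2 difference of 0.61. Col1a2, the other chain of type I collagen, differed by 0.57 in long-term and -0.34 in short-term lungs and passed in neither as deposited. After the correction these values were 0.60, which passed, and 0.25, which did not. The matrix genes Aspn, Col12a1 and Col6a3 fell in short-term lungs, at -1.51, -1.66 and -1.32. They were also lower after the correction, at -1.19, -0.70 and -0.52. Timp1, an inhibitor of matrix metalloproteinases, rose by 2.72 ± 0.25 in long-term lungs (limma adjusted p = 0.000123) and by 5.93 ± 0.25 in short-term lungs (limma adjusted p = 4.91e-07), from 8.90 to 65.5 and 610 TPM, and by 2.48 and 5.57 after the correction.

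**Figure D4:**
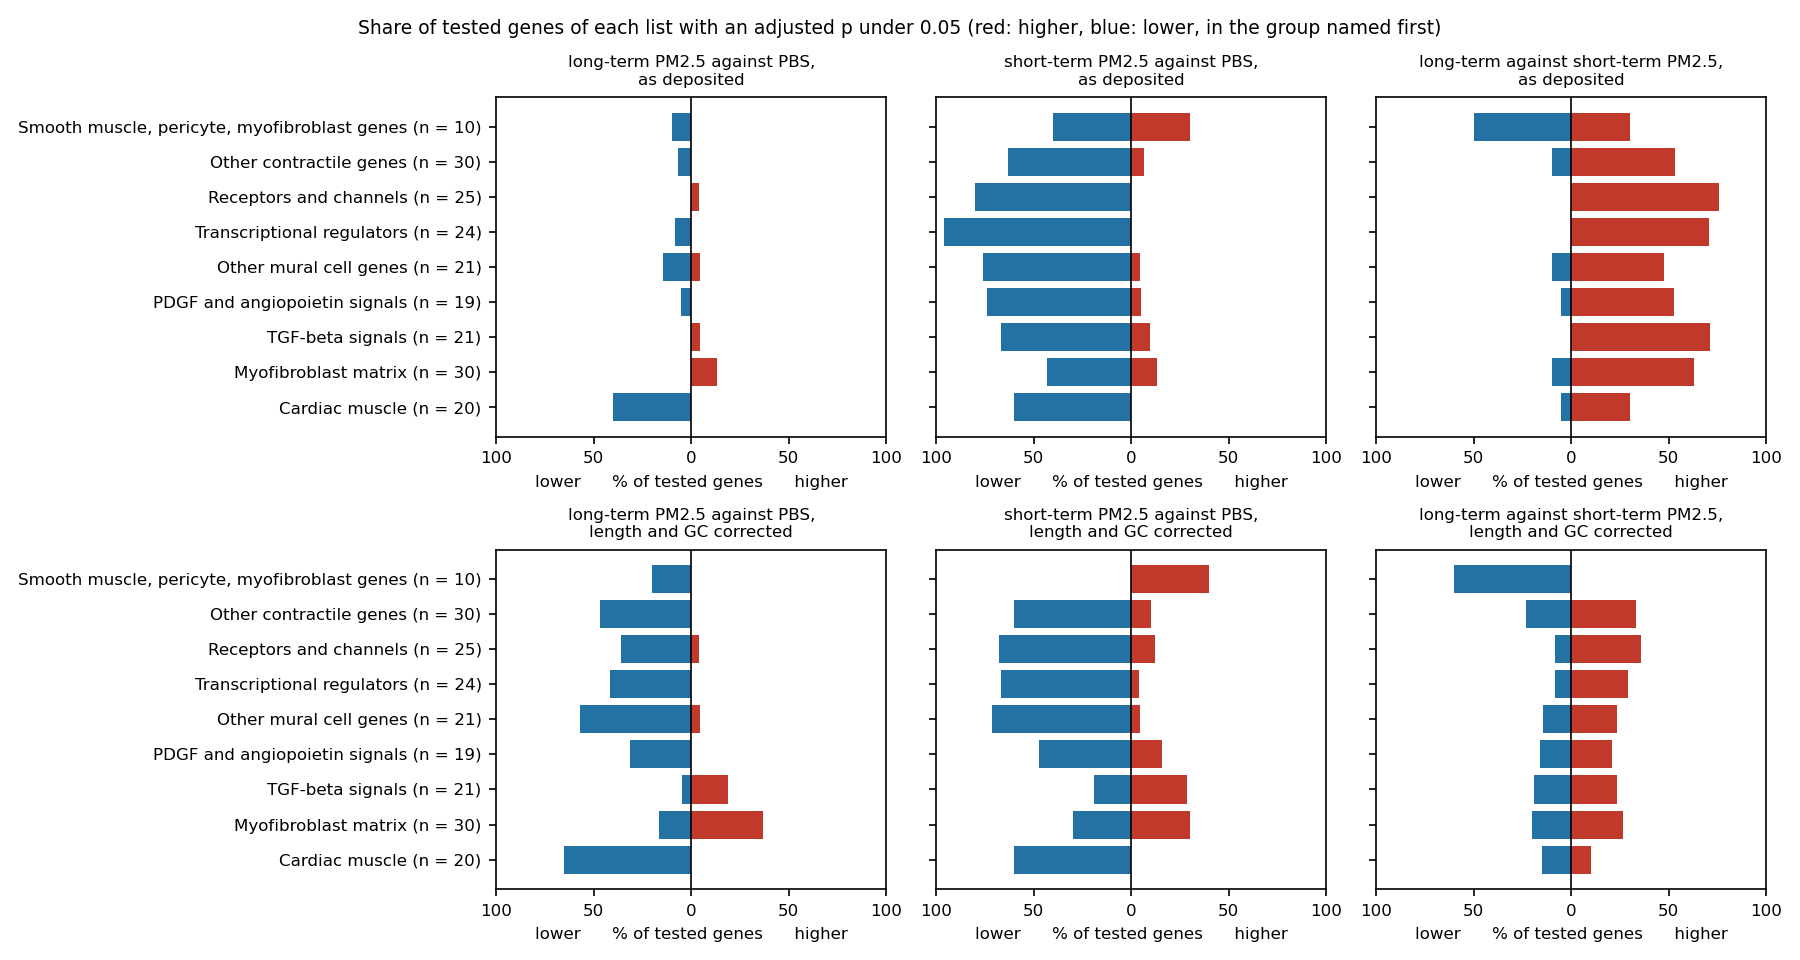
Share of the tested genes of each list that had a limma adjusted p under 0.05, higher to the right and lower to the left of 0, as deposited and after correction for length and GC content. In short-term lungs after the correction the 10 genes had 4 calls higher and 0 lower, while the other contractile genes had 3 higher and 18 lower.

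Whole lung also holds cells that share or dilute these transcripts. Cardiac muscle of the pulmonary veins carries desmin, and its 22 markers, none of them listed at 0 in all libraries, summed to 1297 to 1828 TPM in PBS, 836 to 1150 in long-term and 896 to 1304 in short-term lungs. Of the 20 tested, 8 fell and 0 rose in long-term lungs, beside the Des difference of -0.51, and 12 fell and 0 rose in short-term lungs, beside the Des difference of 0.07, where 1.72% and 40.3% of all tested genes fell. After the correction 13 and 12 of the 20 were lower and 0 higher, beside Des differences of -0.57 and 0.33. Endothelial markers summed to 5866 to 6375 TPM in PBS, 4166 to 4547 in long-term and 4672 to 5328 in short-term lungs, none of the 18 markers being listed at 0 in all libraries. In long-term lungs 7 of 18 fell as deposited and 17 were lower after the correction, beside Pdgfrb differences of -0.41 and -0.39. In short-term lungs 12 fell as deposited and 11 were lower after the correction, beside Pdgfrb differences of -0.65 and -0.05. Leukocyte markers summed to 905 to 1267, 1358 to 1925 and 1811 to 2204 TPM in the same order, and of 16 tested 5 rose in long-term and 6 in short-term lungs, with 0 lower in each; after the correction 7 were higher and 1 lower in long-term and 6 higher and 0 lower in short-term lungs. The part of these cells in the results was not tested.

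The 5 other genes whose log2(TPM + 1) was most like that of Acta2 over the 9 libraries were Creld2, Sphk1, Jtb, Txndc11 and Tarm1, with Pearson r of 0.980, 0.977, 0.972, 0.970 and 0.969. These values follow the group means. Sphk1, a sphingosine kinase, was at 19.2 TPM in PBS, 17.2 in long-term and 39.5 in short-term lungs. Over deviations from group means in the same 9 libraries, the most alike were Mark1, E430018J23Rik, Ints1, Plin4 and Rom1, with r of 0.996, 0.973, 0.970, 0.965 and 0.962.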

How the data were processed

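The authors' deposited table gives TPM for 18875 genes in 9 libraries. Per the labels' protocols, oligo(dT)-selected mRNA was sequenced on the DNBSEQ platform after DSN processing; the tools named in the submitters' processing notes are RSEM, Bowtie2, HISAT2 and DESeq2, without roles or versions, and GRCm38.p6 is the build they name for 8 of the 9 samples. How evenly DSN processing acted cannot be seen from TPM. All column sums lie within 1.09 TPM of each other, so read numbers are unknown and no counting interval was computed.

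The 10 genes, the lists and the tests were chosen with earlier results of these data known. The 13991 genes that reached 1 TPM in 3 or more libraries were fitted as log2(TPM + 1) with limma 3.58.1 (R 4.3.3) over 3 groups, with 6 residual degrees of freedom and an intensity trend, two-sided, with Benjamini-Hochberg adjustment per comparison and a threshold of 0.05. A log2 difference on this scale understates the change of low genes. Gene positions come from RefSeq and transcript lengths from GENCODE vM21 (both GRCm38.p6), the latter matched for 18183 genes. The length and GC correction subtracts natural splines of 5 degrees of freedom from each library and leaves out 199 tested genes of unknown length. On simulated data for short-term PM2.5 against PBS, among 13991 genes, 67% of genes changed by a log2 of 1 were recovered and 4.05% of calls were false. With a simulated length trend 94.43% of calls were false, and 4.82% after the correction, among 13792 genes. Between the exposures the simulated shares were 94.45% and 7.19%. The trend was put in by design, so these values do not show how well the correction works on the deposited libraries. There the short-term replicates differed in the steepness of their fall with length.

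Named genes are the 10, up to 3 called genes of smallest p per list, comparison and direction, Myocd, Srf, Tgfb1, Pdgfb, Col1a1, Col1a2, Rgs5, Notch3, Smtn and Mylk, and the 5 genes most like Acta2 on each of the measures given; not all are printed. Lists of lung fibroblast, skeletal muscle, mesothelial, epithelial and PDGF and angiopoietin genes were also tested: in long-term lungs 3 of 20, 0 of 6, 1 of 8, 1 of 13 and 1 of 19 were lower and 0, 1, 0, 2 and 0 higher, and in short-term lungs 17, 0, 5, 3 and 14 were lower and 0, 1, 1, 4 and 1 higher. After the correction 9, 2, 7, 2 and 6 were lower and 1, 1, 0, 6 and 0 higher in long-term lungs, and 15, 3, 5, 3 and 9 were lower and 0, 0, 1, 5 and 3 higher in short-term lungs. Alternatives were log2(TPM + 0.1), no filter, a mean of at least 5 TPM, median-ratio scaling, quantile normalization, the correction, the compared groups alone, no intensity trend, the replicate number as a block, and leaving out each library. Python 3.11.15 was used for tables and figures.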

Additional observations from a re-analysis of the deposited data

Results flagged for a closer look

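Both exposures were compared with the same PBS libraries, and 8 of the 10 genes had exposure effects that differed from each other by the limma test of long-term against short-term lungs. In that test 50.5% of all 13991 tested genes were called, 7.08% lower and 43.4% higher. The difference was -0.67 for Acta2, -0.69 for Tagln, -0.59 for Des, -0.55 for Cnn1 and -0.33 for Actg2 on the log2 scale, so the long-term level was the lower one. It was 0.61 for Myh11, 0.49 for Lmod1 and 0.46 for Cspg4 as deposited, and -0.07, 0.01 and -0.16 after the correction for transcript length and GC content.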

How the results depend on the processing

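Short-term against PBS, the count of called genes was 7 and became 4 with the length and GC correction and 5 to 7 when 1 library was left out. Long-term against PBS, it was 1 and became 0 with median-ratio scaling, the replicate block or no intensity trend, 2 with the correction, 3 with quantile normalization or the compared groups alone, and 0 to 3 when 1 library was left out. Long-term against short-term, it was 8 and became 5 with quantile normalization or the compared groups alone, and 3 to 9 when 1 library was left out. Over all tested genes, leaving out 1 library changed 7268 calls short-term against PBS to 5123 to 8925. Long-term against PBS 1571 calls became 853 to 3157, and long-term against short-term 7061 became 4621 to 9168. With the replicate block 7 of the 10 genes were called short-term against PBS, 0 long-term against PBS and 6 long-term against short-term. Deviations from group means had correlations from -0.286 to 0.262 between same-numbered libraries and from -0.272 to 0.341 between different-numbered libraries of different groups. These overlapping ranges cannot decide whether the numbers pair samples, and the labels do not say.

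Signs that turned were those of Cspg4 (0.11 long-term and 0.27 short-term against PBS, -0.16 between exposures), Myl9 (-0.025 short-term against PBS), Myh11 (-0.075 between exposures) and Pdgfrb (-0.34 between exposures) with the correction; Pdgfrb (-0.15) with median-ratio scaling; and Lmod1 (-0.066) and Cspg4 (-0.11) with quantile normalization, all between exposures. Values near 0 also turned without 1 library. Against PBS, long-term Lmod1 ranged from -0.20 to 0.024 and Cspg4 from -0.11 to 0.006, and short-term Cnn1 ranged from -0.014 to 0.28, Des from -0.068 to 0.20 and the median of the 10 genes from -0.041 to 0.24. Why values moved with the scaling was not tested. Read depth is unknown.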
